A study of Mus musculus with 16 samples.

Results

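The arrays compared here set exendin-4 present against exendin-4 absent after 6 and 24 h in R7T1, a beta-cell line of the mouse pancreas. Exendin-4 is a peptide agonist of the GLP-1 receptor. The 4 arrays with exendin-4 were exendin-4 alone at 6 and at 24 h and exendin-4 together with the compound labelled BayK8644(2a) at 6 and at 24 h. The 4 arrays without it were BayK8644(2a) at 6 and at 24 h and the DMSO vehicle at 6 and at 24 h. These 8 arrays were taken by their titles from 16 in all, which held the same 4 treatments also at 0.5 and 2 h. BayK8644 is an agonist of L-type calcium channels, the 2a is not explained in the labels, and no dose is stated in the labels used here. The series asks, by its title, about small molecules that expand beta cells. Each treatment and time had 1 array, and nothing in the labels ties the arrays to separate cultures. The p-values therefore measure the spread between single arrays, which may be technical.

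In beta cells the GLP-1 receptor couples to the stimulatory G protein, which turns on adenylyl cyclases and raises cyclic AMP. Cyclic AMP acts through protein kinase A and the EPAC exchange factors, and protein kinase A phosphorylates the transcription factor CREB. Phosphodiesterases, the CREM repressors and salt-inducible kinases are textbook brakes on this pathway, and GLP-1 receptor agonists are known for enhancing insulin secretion when glucose is high.

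The arrays fall into 4 matched pairs that share no array: 6 h without BayK8644, 6 h with BayK8644, 24 h without BayK8644 and 24 h with BayK8644. A matched difference is the log2 intensity with exendin-4 minus that without it in the same pair, and values below keep that order of pairs. Tac1, the precursor gene of substance P and neurokinin A, was higher with exendin-4 in all 4 pairs, by a mean of 1.38 log2 units, and so were Oxtr (0.87), Fosl2 (0.72), Fkbp11 (0.53) and Sik2 (0.40). Ngfr (-0.74), Lmnb1 (-0.66) and Kcnd2 (-0.63) were lower in all 4. No gene passed the test over the 8 arrays: limma called 0 of 10610 genes higher (0%) and 0 lower (0%) at an adjusted p under 0.05, and 798 had an unadjusted p under 0.05, beside 530 expected at that threshold when no gene differs. The smallest adjusted p was 0.533. Differences below are therefore values, and none of them is a call. Across genes, 775 of 10610 (7.3%) were higher in 4 of 4 pairs, 726 (6.84%) were lower in 4 of 4, and both directions together made up 1501 genes (14.1%). That balance depended on the scaling, since 670 were higher (6.31%) and 1006 lower (9.48%) with arrays centred on the median, 745 (7.02%) and 893 (8.42%) after quantile normalization, and 655 (6.17%) and 850 (8.01%) with the mean of a gene's probe sets.

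The differences of the 4 pairs were weakly alike. Over 10610 genes, which are not independent replicates, the differences of the 24 h and 6 h pairs with BayK8644 had a Pearson correlation of 0.394, and the 6 h pair without BayK8644 correlated at 0.102 with the 6 h pair with it and at 0.180 with the 24 h pair with it. Those of the 24 h pair without BayK8644 correlated at -0.149 with the 6 h pair with BayK8644, at -0.159 with the 24 h pair with BayK8644 and at 0.0228 with the 6 h pair without it. That pair also held 66 genes with a difference over 1 log2 unit, against 24 to 34 in each of the other 3. Leaving out that pair gave 36 calls (34 higher, 0.32%, and 2 lower, 0.0189%) with 2 residual degrees of freedom, and in 29 of the 36 genes the omitted pair pointed the other way. Leaving out each of the other 3 pairs gave 0 calls, so the 36 rest on the omission of 1 pair, and no support is drawn from them. Where 4 differences are listed below, the value of this pair is the third.

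RNA quality and cell type markers were read on the same 8 arrays. The Actb control probe sets read RNA integrity as the log2 level at the 3' end minus that at the 5' end, which lay between 0.588 and 0.774 with exendin-4 and between 0.619 and 0.687 without it. Ins2, an insulin gene, lay between 15.61 and 15.79 with exendin-4 and between 15.65 and 15.78 without it, and Pdx1, Nkx6-1, Nkx2-2, Neurod1, Iapp and Chga were all well above the floor. Markers of leukocytes (Ptprc, Cd68), mesenchyme (Col1a1, Col3a1, Acta2), endothelium (Pecam1, Cdh5), acinar cells (Cpa1, Prss2) and duct (Krt19) did not reach the level used for testing on enough arrays. The acinar gene Cela1 lay between 9.18 and 9.60 with exendin-4 and between 8.95 and 9.53 without it, and the duct gene Krt7 between 8.48 and 9.32 with exendin-4 and between 8.08 and 8.84 without it. Glp1r, the receptor gene itself, gave log2 values of 2.04 to 2.08 over the 16 arrays, too low to be tested.

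The promoter bases of 3 genes of the cyclic AMP axis are shown because they carry the letters CREB reads. They are the 250 bases before the start, 5' to 3' on the gene's strand, from RefSeq (GRCm38.p6). Capitals mark TGACG on either strand, the core of the CREB motif, or the whole palindrome TGACGTCA, which holds TGACG on both strands. Tac1 had the largest difference of the 24 genes named below (chr6:7554811-7555060, plus strand), and Sst (chr16:23890845-23891094, minus strand), the somatostatin gene, and Pcsk1 (chr13:75089607-75089856, plus strand), a prohormone convertase gene, hold a whole palindrome.
Tac1: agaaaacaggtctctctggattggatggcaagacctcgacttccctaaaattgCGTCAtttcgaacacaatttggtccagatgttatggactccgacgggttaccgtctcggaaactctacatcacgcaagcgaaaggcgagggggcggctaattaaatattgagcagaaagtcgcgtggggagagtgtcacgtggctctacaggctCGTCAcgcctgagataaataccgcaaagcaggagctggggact
Sst: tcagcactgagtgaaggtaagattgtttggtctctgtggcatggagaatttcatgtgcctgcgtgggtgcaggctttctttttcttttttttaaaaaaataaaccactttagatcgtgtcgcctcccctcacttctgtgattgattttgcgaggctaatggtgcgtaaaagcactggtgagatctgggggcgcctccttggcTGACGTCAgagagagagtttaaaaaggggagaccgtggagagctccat
Pcsk1: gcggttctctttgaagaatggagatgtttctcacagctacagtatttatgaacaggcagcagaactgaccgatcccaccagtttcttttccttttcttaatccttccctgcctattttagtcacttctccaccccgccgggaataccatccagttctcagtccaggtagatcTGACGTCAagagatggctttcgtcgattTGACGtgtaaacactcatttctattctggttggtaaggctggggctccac
The 2 blocks in capitals of Tac1 begin 197 and 43 bases before the start. The palindrome begins 48 bases before the start in Sst and 78 in Pcsk1, which has a further TGACG 50 bases before it. Over windows from 250 bases before to 50 after the start, 11 of the 12 genes named as higher had an entry, and 6 of their 14 promoters held TGACG (42.9%). Among the 12 named as lower, 10 had an entry and 4 of 14 promoters held it (28.6%), against 20.8% of all 32851 promoters in the table. Counted by gene, 5 of the 11 higher genes (45.5%) and 2 of the 10 lower genes (20%) held it, against 23% of all genes in the table. TGACGTCA stood in 0 of the 14 promoters of the higher genes and 0 of the 14 of the lower genes, against 1.79% of all promoters. These matches are descriptions of letters and do not show a site in use. The search had been planned for genes that passed the test and was extended to the named genes after their values were seen.

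The 12 genes named in each direction were those with 4 matched differences of 1 sign whose smallest difference was largest. By that ranking the last higher gene, Lfng, had a smallest difference of 0.257 and the next, Rpl27a, 0.249. The last lower gene, Ripor2, had 0.2152 and the next, Dhx38, 0.2149. These differences chose the genes, so they describe them and support nothing. The adjusted p of the 12 higher genes lay between 0.533 and 0.579, and that of the 12 lower genes between 0.533 and 0.663. The groups of 4 arrays did not overlap for 3 of the 12 in each direction, beside 88 of all genes higher (0.829%) and 114 lower (1.07%).

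**Figure D1:**
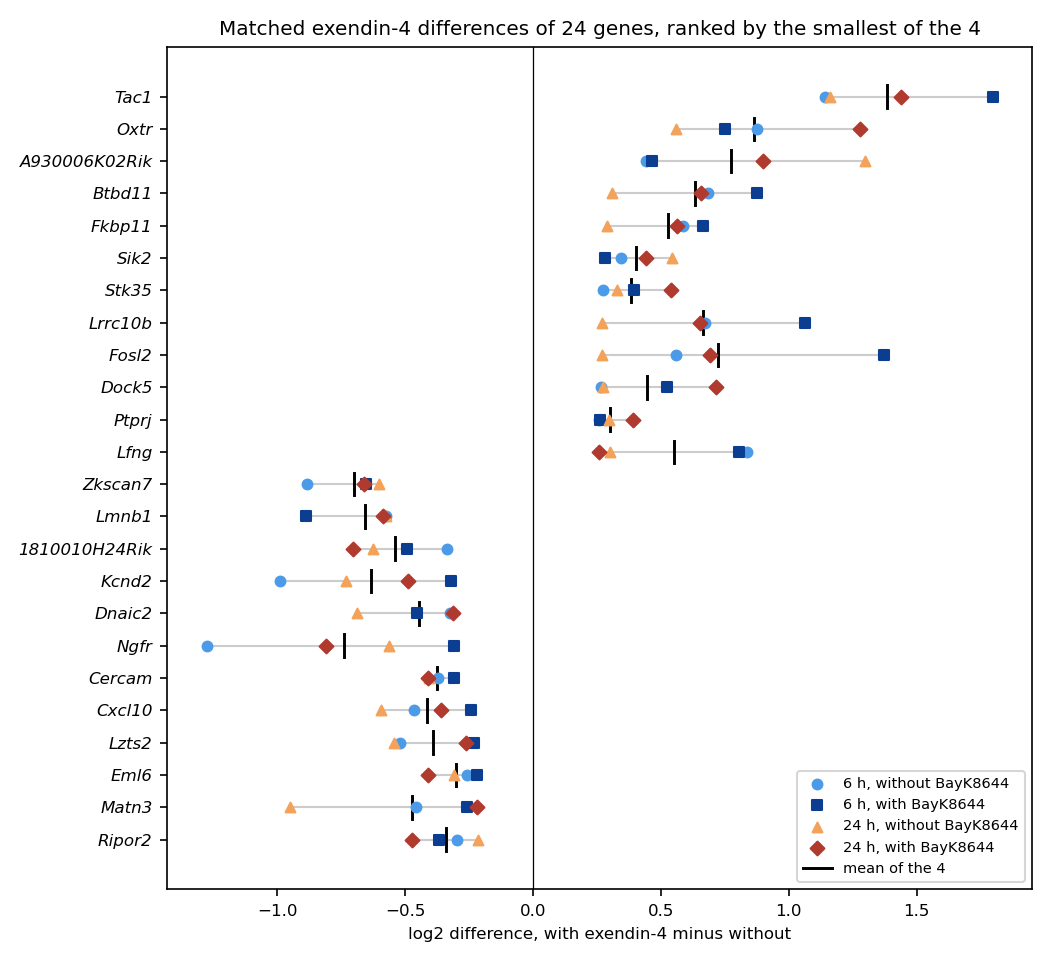
Matched differences (log2, with exendin-4 minus without, x axis) of the 24 named genes; each marker is 1 pair of arrays and the black bar is the mean of the 4. Tac1 lies farthest right at a mean of 1.38, and the lower genes reach a mean of -0.74 in Ngfr.

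Named genes that encode a secreted peptide or a receptor are given first. Tac1 had log2 levels of 7.13, 10.14, 6.70 and 8.25 with exendin-4, against 5.99, 8.35, 5.54 and 6.81 without it. The 4 matched differences were 1.14, 1.80, 1.16 and 1.44, a mean of 1.38 ± 0.25 (SE; limma adjusted p = 0.533, with time and BayK8644 as blocks), or 2.61-fold. Within each pair the exendin-4 array was the higher, but across pairs the groups overlapped, and the arrays with BayK8644 were the high ones in both. Oxtr, the oxytocin receptor, had 7.73, 7.89, 7.86 and 8.59 with exendin-4, against 6.85, 7.14, 7.30 and 7.31 without it. Every exendin-4 array lay above every array without it, and the mean difference was 0.87 ± 0.12 (SE; limma adjusted p = 0.533). Ngfr, the p75 neurotrophin receptor, lay the other way, at 6.17, 6.51, 6.72 and 6.72 with exendin-4, against 7.45, 6.82, 7.28 and 7.53 without it. Its groups did not overlap, and its mean difference was -0.74 ± 0.15 (SE; limma adjusted p = 0.533), the widest of its 4 differences being -1.28 at 6 h without BayK8644. With the matched pairs as the block, the limma adjusted p was 0.0581 for Tac1, 0.373 for Oxtr and 0.616 for Ngfr, and none passed. Cxcl10, a chemokine that binds CXCR3, had matched differences of -0.47, -0.24, -0.60 and -0.36.

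Genes of the cyclic AMP pathway lay on both sides. Sik2 is a salt-inducible kinase that protein kinase A phosphorylates and that keeps the CRTC coactivators of CREB out of the nucleus. It had 8.58, 8.32, 8.62 and 8.35 with exendin-4, against 8.24, 8.03, 8.08 and 7.91 without it. The groups did not overlap, and the mean difference was 0.40 ± 0.08 (SE; limma adjusted p = 0.533). A second probe set of Sik2 differed by 0.11, and the mean of its probe sets by 0.26 (limma adjusted p = 0.695). The phosphodiesterases Pde1c and Pde4b, which break down cyclic AMP, were higher in 4 of 4 pairs by 0.36 ± 0.07 and 0.31 ± 0.07 (SE). Pde4b lay at 10.53, 10.32, 10.49 and 9.99 with exendin-4, against 10.22, 9.88, 10.25 and 9.73 without it, and its groups overlapped. Crem, the gene of the inducible repressor of CREB, was higher in 3 pairs, with differences of 0.63, 0.78, -0.01 and 0.32. Without the 24 h pair lacking BayK8644, the mean of Crem was 0.58 in place of 0.43. Of 32 genes of the cyclic AMP pathway and its feedback that reached the level used for testing, of 48 listed, 4 (12.5%) were higher in 4 of 4 pairs and 5 (15.6%) lower, against 7.3% and 6.84% of all genes, and the median difference was 0.00, against 0.01 over all genes. Without the 24 h pair lacking BayK8644, 7 (21.9%) were higher and 7 (21.9%) lower in every remaining pair. The shares of all genes were then 26.1% and 12.7%. The 4 higher were Sik2, Pde1c, Pde4b and Pde4d, the last a phosphodiesterase at 0.09 ± 0.07 (SE). The 5 lower were Gipr, the GIP receptor, at -0.22 ± 0.08, Prkar2a, Prkar2b and Prkacb, subunits of protein kinase A, and Gnas, the stimulatory G protein, at -0.11 ± 0.04 (SE).

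**Figure D2:**
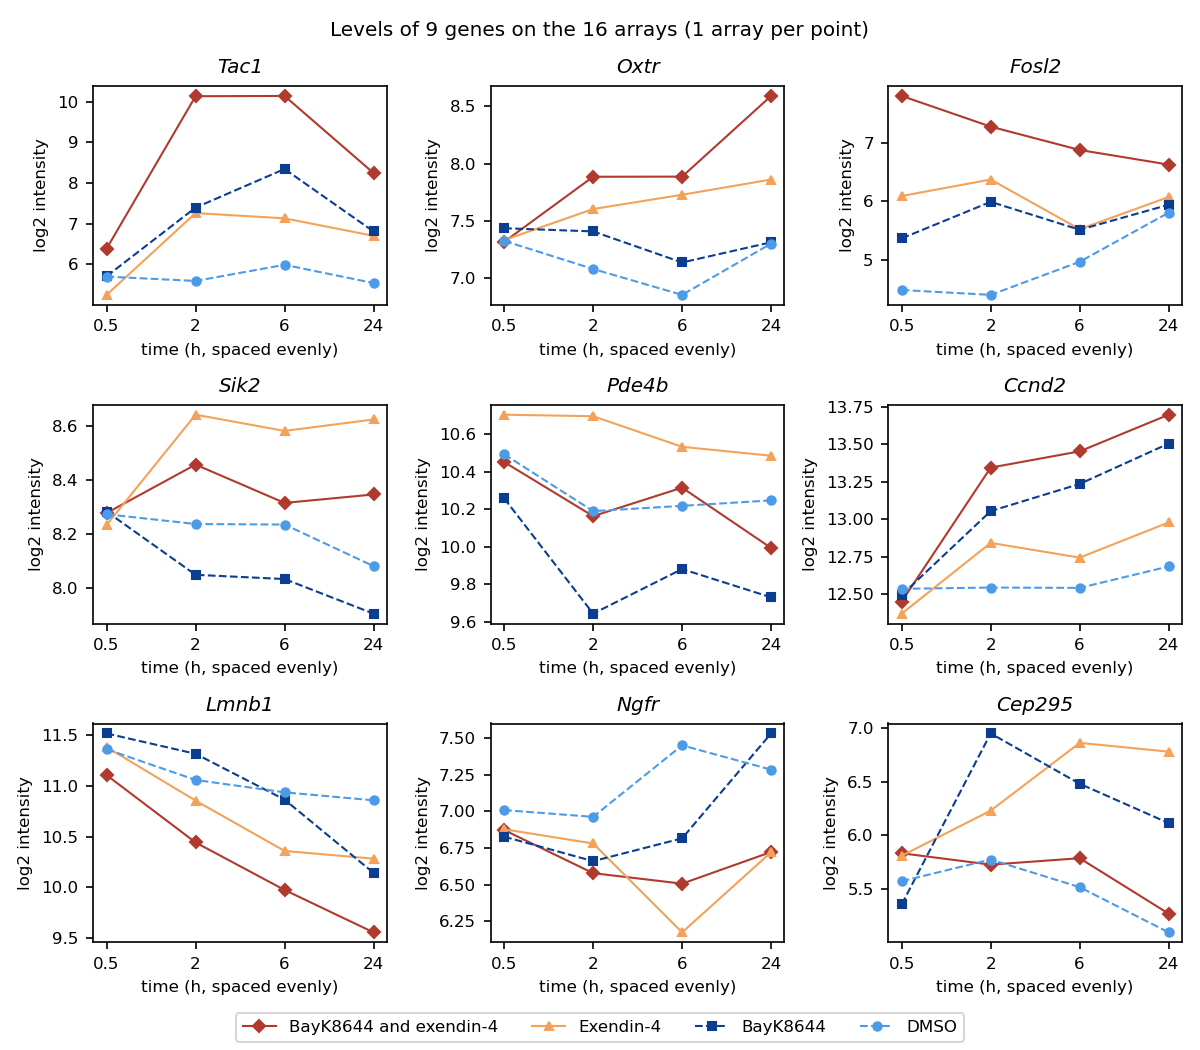
Log2 intensity (y axis) of 9 genes on all 16 arrays against time (x axis, evenly spaced); red diamonds are BayK8644 and exendin-4 together, orange triangles exendin-4, dark blue squares BayK8644 and light blue circles DMSO, 1 array per point. The 2 exendin-4 lines lie above their partner lines at 6 and 24 h for Tac1, Oxtr, Fosl2, Sik2, Pde4b and Ccnd2 and below them for Lmnb1 and Ngfr, and Cep295 changes sides with BayK8644.

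Among targets of CREB and cyclic AMP, more members were higher in 4 of 4 pairs than lower in 4 of 4. Of 31 measured, of 36 listed, 7 (22.6%) were higher in 4 of 4 pairs, against 7.3% of all genes, and 3 (9.68%) were lower, against 6.84%. Without the 24 h pair lacking BayK8644, 9 (29.0%) were higher and 3 (9.68%) lower in every remaining pair. The shares of all genes were then 26.1% and 12.7%, so the excess of higher members was small without that pair. The median difference was 0.06, against 0.01 over all genes. In the 4 pairs 13, 20, 19 and 23 of the 31 were higher, against 5121, 6397, 4060 and 6728 of all 10610 genes. The medians were -0.01, 0.13, 0.03 and 0.15, against -0.01, 0.04, -0.04 and 0.06 over all genes. The 7 were Tac1, Fosl2, Irs2, Vgf, Nr4a1, Nr4a3 and Gadd45b. Fosl2, an AP-1 transcription factor, had 5.52, 6.89, 6.08 and 6.63 with exendin-4, against 4.96, 5.51, 5.81 and 5.94 without it, a mean difference of 0.72 ± 0.19 (SE; limma adjusted p = 0.579). Its largest difference, 1.37, was at 6 h with BayK8644, and its mean without that pair was 0.51. Vgf, a precursor of secreted neuroendocrine peptides, had differences of 0.46, 0.24, 0.27 and 0.15. Irs2, the insulin receptor substrate that GLP-1 signalling is known to induce in beta cells, had differences of 0.10, 0.20, 0.83 and 0.17, and its mean of 0.33 ± 0.13 (SE) was 0.16 without the 24 h pair lacking BayK8644. Nr4a1, an orphan nuclear receptor, had 0.24, 0.28, 0.15 and 0.30. The 3 lower were Gem, a GTPase that restrains calcium channels, at -0.22 ± 0.05, Cited2, a transcriptional coregulator, at -0.20 ± 0.04, and the granin Scg2 at -0.07 ± 0.04 (SE). Ppargc1a, another well known cyclic AMP target, had a mean of 0.20 ± 0.13 (SE) with levels near the floor, and Sik1 and Pck1 stayed below the level used for testing on all 16 arrays.

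Genes of the unfolded protein response and the integrated stress response had the highest share of members higher in 4 of 4 pairs with exendin-4 among the 20 lists. These pathways raise chaperones and folding enzymes of the endoplasmic reticulum and adjust translation and amino acid supply. Of 40 measured, of 43 listed, 15 (37.5%) were higher in 4 of 4 pairs, against 7.3% of all genes, and 0 were lower, against 6.84%. Without the 24 h pair lacking BayK8644, 21 (52.5%) were higher and 1 (2.5%) lower in every remaining pair. The shares of all genes were then 26.1% and 12.7%. The median difference was 0.09, against 0.01 over all genes, and no member passed the test. In the 4 pairs 27, 29, 28 and 33 of the 40 were higher, against 5121, 6397, 4060 and 6728 of all 10610 genes. The medians were 0.06, 0.10, 0.03 and 0.15, against -0.01, 0.04, -0.04 and 0.06 over all genes. Hyou1, a chaperone of the endoplasmic reticulum, had 10.78, 11.13, 11.05 and 11.38 with exendin-4, against 10.59, 10.94, 10.72 and 11.07 without it. Its mean difference was 0.26 ± 0.05 (SE; limma adjusted p = 0.533), and 2 further probe sets of Hyou1 differed by 0.07 and 0.20. Nupr1, a stress-induced nuclear protein, had differences of 0.05, 0.32, 0.36 and 0.32. Ddit3, the transcription factor CHOP, had differences of 0.17, 0.08, 0.20 and 0.27, and Ppp1r15a, which directs the phosphatase of the initiation factor eIF2 alpha, had 0.13, 0.27, 0.11 and 0.27. Hspa5, the chaperone BiP, differed by 0.09 ± 0.04 (SE) at levels of 15.45, 15.61, 15.32 and 15.41 with exendin-4, against 15.33, 15.49, 15.26 and 15.37 without it, and its 2 further probe sets differed by -0.02 each. The remaining 10 were Creld2, Pdia4, Trib3, Pdia6, Sel1l, Cebpb, Dnajb11, Chac1, Slc3a2 and Calr. Sdf2l1, another endoplasmic reticulum protein, had the largest mean of the list, 0.37 ± 0.10, with differences of 0.51, 0.51, -0.07 and 0.53, and its 1 negative difference lay in the 24 h pair without BayK8644. Fkbp11, a prolyl isomerase of the same compartment that is not on the list, had 9.13, 9.83, 9.28 and 10.61 with exendin-4, against 8.55, 9.17, 8.99 and 10.04 without it. Its mean difference was 0.53 ± 0.12 (SE; limma adjusted p = 0.539). Atf4, the central factor of the integrated stress response, differed by 0.03, -0.16, 0.22 and -0.05.

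**Figure D3:**
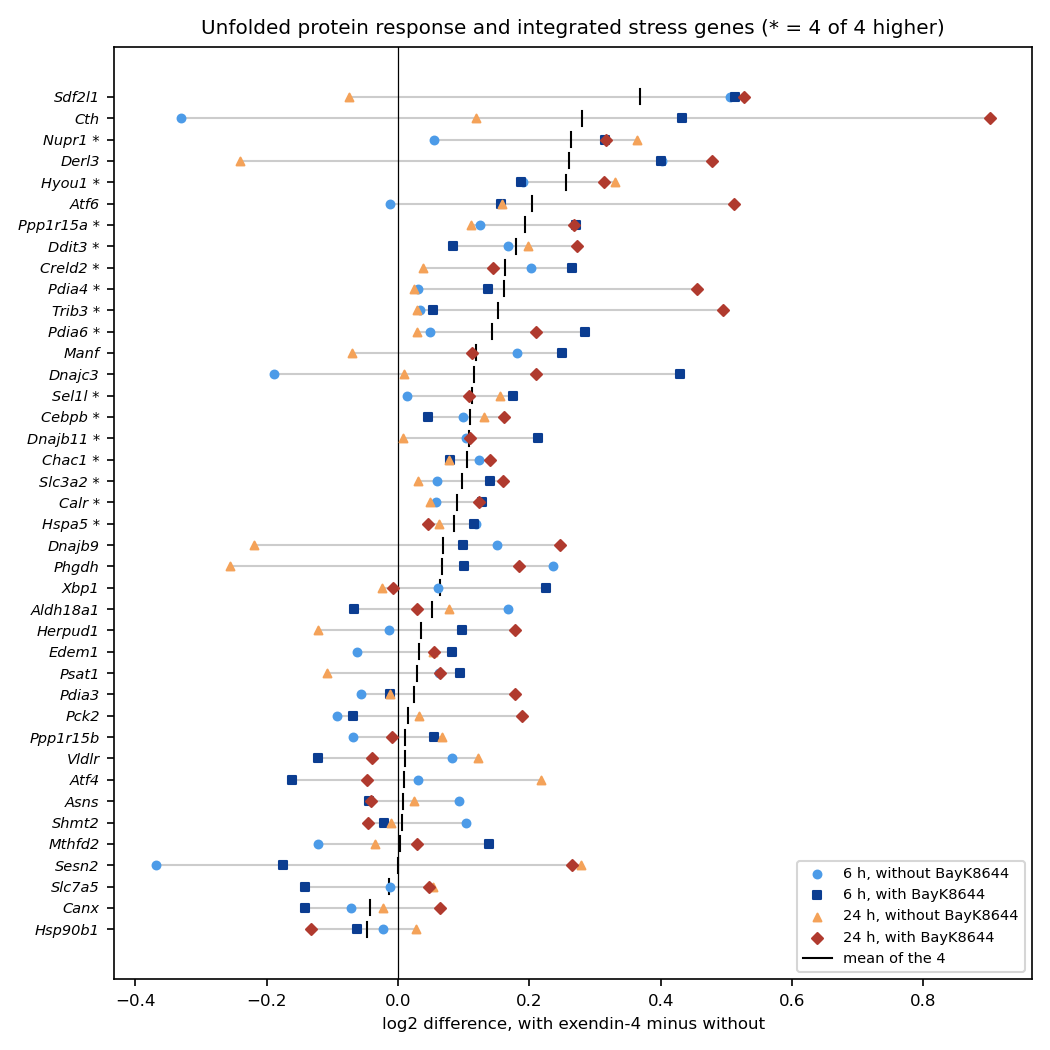
Matched differences (log2, with exendin-4 minus without, x axis) of the 40 measured genes of the unfolded protein and integrated stress responses, ordered by their mean (black bar); an asterisk marks the 15 with 4 of 4 differences above 0. Most bars lie between 0 and 0.30, and the triangle of the 24 h pair without BayK8644 is below 0 for Sdf2l1, the top gene.

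The arrays of 2 h, which do not enter that list's counts at 6 and 24 h, showed the same side. The list was chosen with earlier results of these data known, and its genes are not independent replicates. The 2 h values are therefore a description and not an independent test. At 2 h, 32 of the 40 stress genes (80%) were higher with exendin-4 both with and without BayK8644, against 33.1% of all genes, with medians of 0.13 without BayK8644 and 0.12 with it. All 15 members that were higher in 4 of 4 late pairs were higher in both pairs at 2 h, against 454 (58.6%) of the 775 such genes. At 0.5 h, 14 of 40 were higher without BayK8644 and 20 of 40 with it, and the medians were -0.0218 and -0.00116. Of all 10610 genes 6162 and 5402 were higher at 0.5 h, with medians of 0.0195 and 0.00237.

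In the G2/M list and in the G1/S list, more genes were lower in 4 of 4 pairs than higher in 4 of 4, and cyclin D2 was among the higher. Single pairs differed, and most members were higher at 6 h with BayK8644, as were most of all genes tested. In the 4 pairs 11, 28, 13 and 9 of the 43 measured G2/M genes were higher, with medians of -0.09, 0.05, -0.07 and -0.08. Of the 43 G1/S genes 12, 27, 12 and 20 were higher, with medians of -0.08, 0.08, -0.06 and -0.04. Of all 10610 genes 5121, 6397, 4060 and 6728 were higher, with medians of -0.01, 0.04, -0.04 and 0.06. The lowest mean difference was -0.20 on the G2/M list and -0.22 on the G1/S list. Lmnb1, lamin B1 of the nuclear lamina, is on neither list and was named by its own differences. It had 10.36, 9.97, 10.28 and 9.56 with exendin-4, against 10.93, 10.86, 10.86 and 10.14 without it. Its mean difference was -0.66 ± 0.11 (SE; limma adjusted p = 0.533), and its second probe set differed by -0.52. Of 43 measured G2/M and mitosis genes, of 44 listed, 8 (18.6%) were lower in 4 of 4 pairs and 2 (4.65%) higher, against 6.84% and 7.3% of all genes, with a median of -0.04. The kinesin Kif20a differed by -0.18 ± 0.05 and Ect2, an exchange factor for cytokinesis, by -0.13 ± 0.04 (SE), and Mki67, the proliferation marker, by 0.04, -0.01, 0.28 and -0.11. Of 43 measured G1/S and replication genes, of 45 listed, 7 (16.3%) were lower in 4 of 4 pairs and 2 (4.65%) higher, with a median of -0.04. Skp2, a subunit of the ligase that degrades p27, and Rrm1, a subunit of ribonucleotide reductase, were each lower by a mean of -0.18, with SE of 0.05 and 0.06. Skp2 had 5 further probe sets, which ranged from -0.32 to 0.29.

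Ccnd2, cyclin D2, was 1 of the 2 genes of the G1/S list that were higher in 4 of 4 pairs. It had 12.74, 13.45, 12.98 and 13.70 with exendin-4, against 12.54, 13.24, 12.68 and 13.50 without it. Each exendin-4 array was above its own partner by 0.20, 0.22, 0.29 and 0.19, a mean of 0.23 ± 0.04 (SE; limma adjusted p = 0.533), while the groups overlapped, and the arrays with BayK8644 were the high ones in both. The 6 further probe sets of Ccnd2 ranged from -0.15 to 0.22, so they did not all point the same way. Ccnd1, cyclin D1, had differences of -1.01, 1.29, -0.05 and 0.60 at levels near the floor, with both signs among them. Among 23 cell cycle inhibitors and growth arrest genes, 3 (13%) were higher in 4 of 4 pairs and 1 (4.35%) lower. Gadd45a, a growth arrest and DNA damage gene, differed by 0.40, 0.46, 0.19 and 0.16, and Sesn1, a sestrin, by -0.15, -0.42, -0.09 and -0.41.

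Channel, granule and beta-cell identity genes had list medians between -0.02 and 0.00. Kcnd2, the A-type potassium channel Kv4.2, had 5.91, 6.83, 6.77 and 6.81 with exendin-4, against 6.90, 7.15, 7.51 and 7.30 without it. Its groups did not overlap, its mean difference was -0.63 ± 0.16 (SE; limma adjusted p = 0.579), and its second probe set differed by -0.09, so that the mean of its probe sets was -0.36. Of 27 measured channel genes, 4 (14.8%) were lower in 4 of 4 pairs and 1 (3.7%) higher, and Cacna1g, a T-type calcium channel, was among the lower at -0.28 ± 0.11 (SE). Kcnj11, the pore of the ATP-sensitive potassium channel, was the higher at 0.19 ± 0.07 (SE), and its second probe set differed by -0.03. Of 37 granule and exocytosis genes, 3 (8.11%) were higher and 2 (5.41%) lower in 4 of 4 pairs. Ptprn, the granule protein IA-2, had 11.32, 11.45, 11.75 and 11.85 with exendin-4, against 11.03, 11.23, 11.17 and 11.52 without it, a mean difference of 0.35 ± 0.06 (SE; limma adjusted p = 0.533). Of 22 identity genes, 1 (4.55%) was higher and 3 (13.6%) lower, and Mnx1, a homeobox factor, differed by -0.33, -0.10, -0.44 and -0.21 with groups that did not overlap. Ins2 differed by 0.03 ± 0.05, Pdx1 by -0.02 ± 0.04 and Pcsk1, the prohormone convertase, by 0.01 ± 0.10 (SE). Slc2a2, the glucose transporter GLUT2, differed by -0.43, 0.45, -1.08 and -0.36.

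In the signalling and metabolic lists, shares stand beside 7.3% higher and 6.84% lower of all genes. Of 19 MAP kinase feedback genes, with a median of -0.04, 2 (10.5%) were higher in 4 of 4 pairs, Dusp10 at 0.30 ± 0.09 and Dusp7, both phosphatases of MAP kinases. The 3 (15.8%) that were lower were Spry1 at -0.32 ± 0.10, Spry4 and Spred2 (SE), inhibitors of growth factor signalling to Ras. Rgs4, a regulator of G protein signalling, had the lowest mean of that list, -0.63, with differences of -1.61, 0.11, -1.13 and 0.11. Of 31 insulin, IGF and AKT genes, 5 (16.1%) were higher and 2 (6.45%) lower, and Foxo4, a forkhead factor, was higher by 0.25 ± 0.10 (SE). Without the 24 h pair lacking BayK8644, 5 (16.1%) of these genes were higher and 5 (16.1%) lower in every remaining pair. The shares of all genes were then 26.1% and 12.7%. Of 30 sterol and fatty acid synthesis genes, 5 (16.7%) were higher and 2 (6.67%) lower, with a median of 0.07. Without the 24 h pair lacking BayK8644, 14 (46.7%) of these were higher and 2 (6.67%) lower in every remaining pair. Elovl6, an elongase of fatty acids, had 9.04, 9.41, 9.10 and 9.54 with exendin-4, against 8.79, 9.16, 8.89 and 9.17 without it, a mean difference of 0.27 ± 0.06 (SE; limma adjusted p = 0.540). Fasn, fatty acid synthase, differed by 0.07, 0.09, 0.42 and 0.16, and by 0.11 without the 24 h pair lacking BayK8644. Of 30 immediate-early genes, 3 (10%) were higher and 1 (3.33%) lower, Zfp36, an mRNA-destabilising protein, at -0.25 ± 0.09 (SE). Of 27 glucose metabolism and ChREBP genes, 1 (3.7%) was higher and 1 (3.7%) lower, of 19 apoptosis genes 0 and 1 (5.26%), and of 16 clock genes 0 in each direction. Of 12 control genes, 1 (8.33%) was lower in 4 of 4 pairs, Ywhaz at -0.10 ± 0.05 (SE). Its 6 further probe sets ranged from -0.07 to 0.27, and the mean of its probe sets was 0.01.

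Markers of other pancreatic cells were measured for 4 alpha, delta and PP genes, 6 acinar and duct genes and 1 mesenchymal, endothelial or leukocyte gene. Gcg, the glucagon gene, had 9.60, 10.06, 9.10 and 9.72 with exendin-4, against 9.13, 9.71, 9.08 and 9.57 without it, a mean difference of 0.25 ± 0.08 (SE; limma adjusted p = 0.628). Krt8, a keratin of epithelia, was the acinar and duct gene that was higher in 4 of 4 pairs, by 0.10, 0.61, 0.10 and 0.07. Irx2, an alpha-cell factor, differed by -0.05 ± 0.14. Sst, somatostatin, differed by -0.01, 0.67, -0.01 and 0.24, and was higher with exendin-4 where BayK8644 was present. Of the 4 alpha, delta and PP genes 1 was higher and 1 lower in 4 of 4 pairs, of the 6 acinar and duct genes 1 was higher and 0 lower, and the 1 other gene had mixed signs. The summed level of the acinar and duct genes lay between 10.21 and 10.69 (log2) with exendin-4 and between 9.97 and 10.47 without it. In bulk RNA, fewer cells of a type and less RNA per cell cannot be told apart, and the part of these markers in the other results was not tested.

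**Figure D4:**
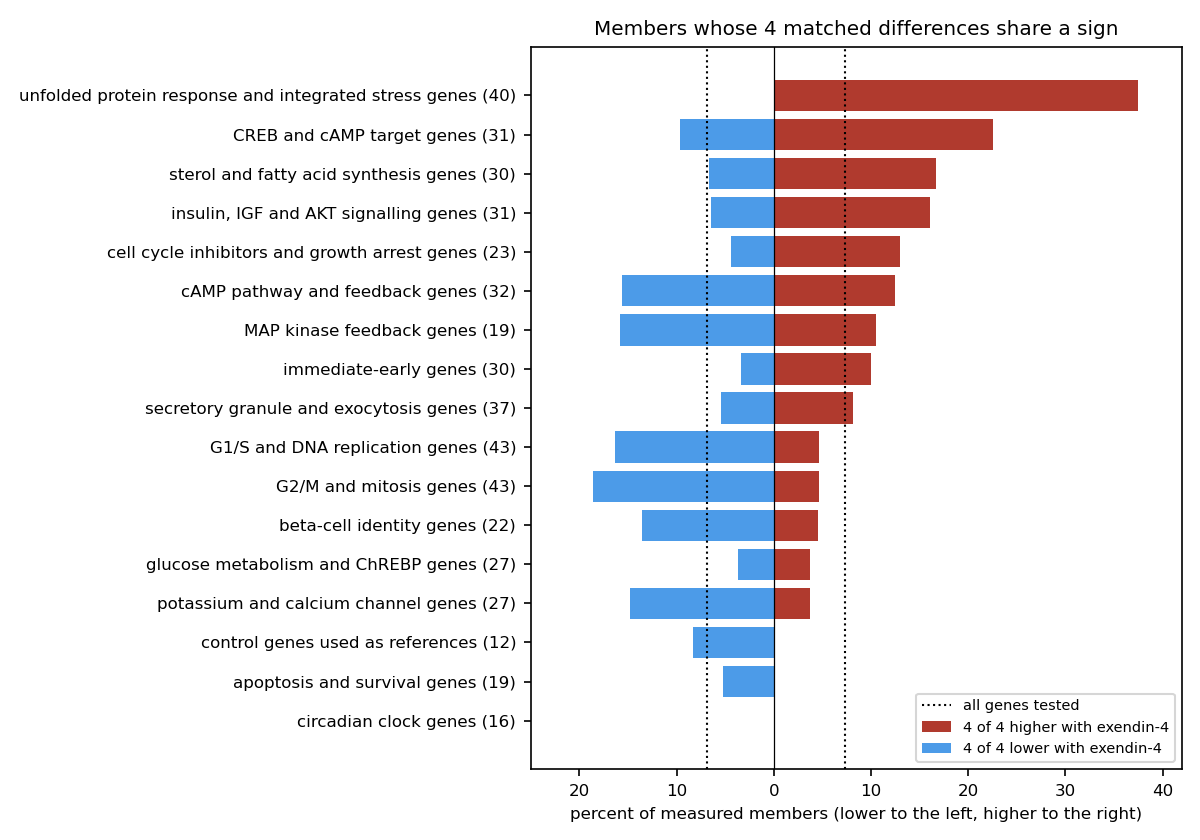
Share of the measured members of each list (percent, x axis) that were higher in 4 of 4 matched pairs with exendin-4 (red, to the right) or lower in 4 of 4 (blue, to the left), with the number measured in brackets; dotted lines mark the 7.3% and 6.84% of all genes tested. The unfolded protein and integrated stress genes reach 37.5% to the right and 0% to the left, and the mitosis genes 18.6% to the left.

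The other named genes follow by direction. A930006K02Rik, which has no role given here, was higher by 0.44, 0.46, 1.30 and 0.90, while its second probe set differed by 0.16 and the mean of its probe sets by 0.47. Btbd11 was higher by 0.69, 0.87, 0.31 and 0.66, with a second probe set at 1.14. Lrrc10b, a leucine-rich repeat gene, had 8.99, 8.95, 8.49 and 8.64 with exendin-4, against 8.32, 7.89, 8.22 and 7.99 without it, and its groups did not overlap. Its mean difference was 0.66 ± 0.12 (SE; limma adjusted p = 0.533). Stk35, a nuclear kinase, was higher by 0.38 ± 0.08 (SE), with a second probe set at 0.08 and a mean of probe sets of 0.23. Dock5, an exchange factor for Rac, was higher by 0.44 ± 0.13, Ptprj, a receptor tyrosine phosphatase, by 0.30 ± 0.07, and Lfng, which modifies Notch with sugars, by 0.55 ± 0.14 (SE). On the lower side, 1810010H24Rik had 7.40, 7.12, 7.43 and 7.08 with exendin-4, against 7.73, 7.61, 8.05 and 7.78 without it, with no overlap and a mean difference of -0.54 ± 0.09 (SE; limma adjusted p = 0.533). Zkscan7, a zinc finger gene, was lower by -0.70 ± 0.18 at levels close to the floor. Dnaic2, an axonemal dynein chain, differed by -0.44 ± 0.10, Cercam by -0.37 ± 0.08, Lzts2 by -0.39 ± 0.12, Eml6, of the microtubule-binding EMAP family, by -0.30 ± 0.09, and Ripor2, an inhibitor of RhoA, by -0.34 ± 0.16 (SE). Matn3, a matrix protein, differed by -0.47 ± 0.20 (SE), and its second probe set by 0.14. Of the named genes with further probe sets above the filter, these pointed the same way in 4 of 4 higher genes and 2 of 3 lower genes.

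Some genes outside the naming rule had larger means than most of the named ones, and were picked out after their values were seen. Anp32a, an acidic nuclear phosphoprotein, had differences of 0.09, 2.08, 1.62 and 2.45, a mean of 1.56 ± 0.35 (SE; limma adjusted p = 0.539). Leaving out the DMSO array of 6 h made Anp32a the 1 gene called among 10610. That array belongs to the pair with the difference of 0.09, so the call rests on its omission and no support is drawn from it. Vegfc, a growth factor of lymphatic vessels, had 0.01, 1.60, 0.54 and 2.31, Gsdma 0.96, 0.19, 1.45 and 1.81, and Max, the partner of Myc, -0.08, -1.29, -0.71 and -1.37.

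The earlier times were not used to choose the 24 genes, and they describe those genes on other arrays. All 12 higher genes had an early mean (0.5 and 2 h) of the same sign, against 65% of all genes and 81% of the 775. In 11 of the 12 (91.7%) both 2 h differences had that sign, against 39.5% of all genes and 58.6% of the 775, the exception being Ptprj with 0.31 and -0.14. Their median difference was 0.05 at 0.5 h, 0.50 at 2 h and 0.59 at 6 and 24 h. Tac1 differed by -0.45 and 0.68 at 0.5 h and by 1.67 and 2.74 at 2 h, without and with BayK8644. Fosl2 was already apart at 0.5 h, by 1.62 and 2.45, and at 2 h by 1.98 and 1.29, so that its late mean of 0.72 was the smallest of the 3. Oxtr differed by 0.01 and -0.12 at 0.5 h and by 0.52 and 0.48 at 2 h, and Sik2 by -0.04 and -0.01 at 0.5 h and by 0.40 and 0.41 at 2 h. Of the 12 lower genes, 7 had an early mean of the same sign, against 69.1% of the 726, and 5 (41.7%) had both 2 h differences of that sign, against 49.3% of the 726. Lmnb1 differed by -0.20 and -0.87 at 2 h, while Ngfr differed by -0.18 and -0.08 and Kcnd2 by 0.15 and -0.07.

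**Figure D5:**
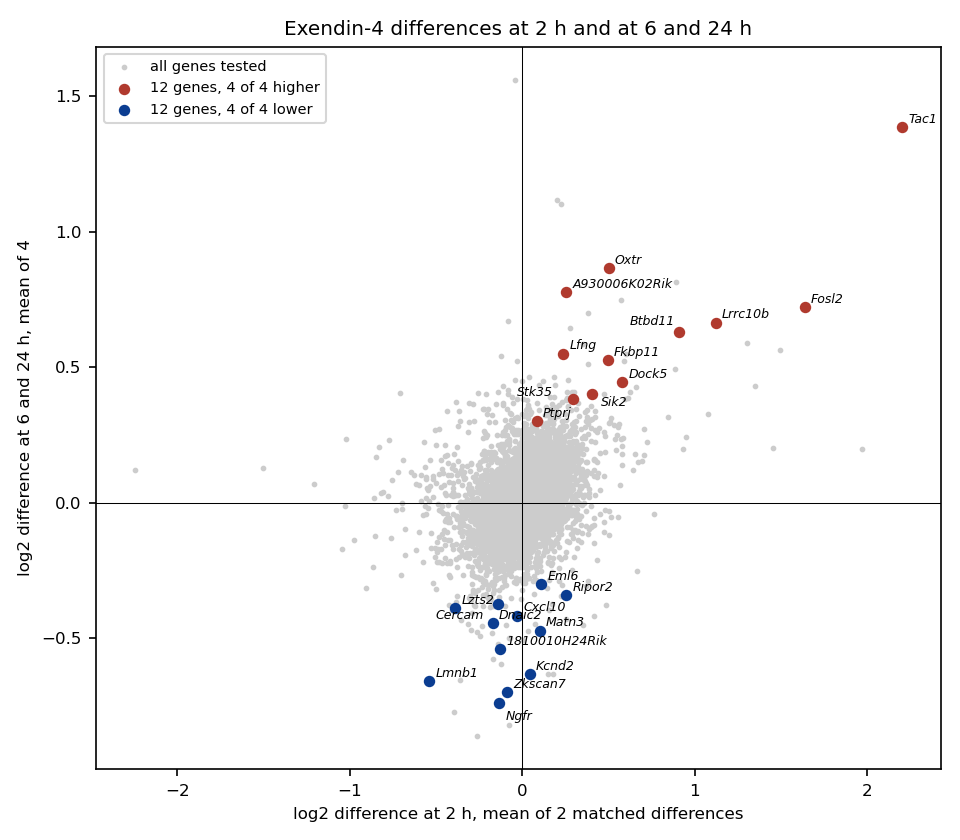
Mean of the 2 matched differences at 2 h (log2, x axis) against the mean of the 4 at 6 and 24 h (log2, y axis), both with exendin-4 minus without; grey points are all 10610 genes, red the 12 named as higher and blue the 12 named as lower. The red genes all lie right of 0, with Tac1 at 2.20 and Fosl2 at 1.64 on the x axis, and the blue genes lie on both sides.

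The difference of the exendin-4 effect between times and between BayK8644 states was tested as an interaction in the same 8 arrays. At 6 h alone limma called 0 genes (0%; 479 with an unadjusted p under 0.05), at 24 h alone 0 (0%; 438), and for the change between the times 0 (0%; 218). For the change with BayK8644 it called 0 higher (0%) and 1 lower (0.00943%), with 1115 genes at an unadjusted p under 0.05. That gene was Cep295, a centriole protein. It had 6.86, 5.79, 6.78 and 5.28 with exendin-4, against 5.52, 6.48, 5.10 and 6.11 without it. Exendin-4 arrays were higher without BayK8644, by 1.34 and 1.68, and lower with it, by -0.69 and -0.84, an interaction of -2.27 ± 0.20 (SE; limma adjusted p = 0.0463). The call rests on 3 residual degrees of freedom and 1 probe set. No gene was called under 5 of 11 other settings and in 6 of 8 fits that left out 1 array. Whether Cep295 was among the genes called in the remaining settings and fits was not counted. At 2 h Cep295 differed by 0.45 without BayK8644 and -1.22 with it, and at 0.5 h by 0.24 and 0.47. For time, Adcy8, an adenylyl cyclase, had the smallest p, with -0.39 and -0.72 at 6 h and 0.60 and 0.69 at 24 h around the floor level of the method, and its change of 1.20 did not pass the test by limma.

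Without the 24 h pair lacking BayK8644 the 36 called genes (0.339% of all genes tested) held 6 of the 24 named genes. These were Tac1, Oxtr, Lrrc10b, Btbd11, Lmnb1 and Fkbp11, for which the omitted pair pointed the same way as the others. The 24 were chosen for differences of 1 sign in pairs that include those of this fit. The overlap was therefore favoured in advance, and no support is drawn from it. In 29 of the 36 the omitted pair pointed the other way, and Uqcrh and Chchd1 are 2 of these, picked after their values were seen. Uqcrh, a subunit of complex III, had 14.03, 14.17, 13.77 and 14.28 with exendin-4, against 13.65, 13.83, 13.98 and 13.97 without it, and the exendin-4 array of 24 h without BayK8644 was the 1 array of its group below its partner. Chchd1, a mitochondrial ribosome protein, had 11.92, 12.08, 11.28 and 12.31 with exendin-4, against 11.43, 11.60, 12.03 and 11.67 without it. Its differences were 0.50, 0.48, -0.76 and 0.65, and its mean was 0.22 with all pairs and 0.54 without that pair. The 3' to 5' difference of Actb was 0.689 on the exendin-4 array of that pair and 0.655 on the DMSO array, inside the range of the other arrays, and the part of RNA quality in the pair's difference was not tested.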

How the data were processed

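R7T1 cells were profiled on 1-colour Affymetrix arrays, 1 per treatment and time. The authors deposited linear intensity values for 45101 probe sets, which had gone through GCRMA, per the submitters' processing notes (version not given in the sources used here). These were log2-transformed without a pseudocount. Of the probe sets, 34958 had 1 gene symbol in the platform annotation, 932 several and 9211 none; those with 1 symbol were kept where log2 reached 4 on at least 2 of 16 arrays (19204), and each gene was read from its probe set of highest mean over the arrays (10610 genes). Values under log2 4 lie near the floor, so that differences there are set by it in part.

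The 8 arrays were fitted with limma 3.58.1 under R 4.3.3 (lmFit, eBayes with an intensity trend) with time and BayK8644 as blocks (4 residual degrees of freedom; 3 with an interaction), two-sided, with Benjamini-Hochberg adjusted p-values over all genes and 0.05 as threshold. The script was tested on simulated data. The number of arrays limits the precision. The files and labels give no batch and no replicate numbers.

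Named genes are those past the threshold and, where fewer than 12 a direction, genes with 4 matched differences of 1 sign that reach log2 4 on all 4 arrays of the higher side, ranked by the smallest of the 4; the smallest interaction p-values, the leading members of each of 20 lists and a set of fixed genes were added, which made 79 in all. The members, lists and rules were chosen with earlier results of these data known. Alternatives covered the block, the filter, the normalization, the probe sets, the trend and leaving out each array and each pair.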

Additional observations from a re-analysis of the deposited data

Results flagged for a closer look

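The exendin-4 difference changed sign with BayK8644 in 6 named genes, each pair of arrays with BayK8644 going one way and each pair without it the other. For Cep295 the effect with minus without BayK8644 was -2.27 and passed the interaction test (limma adjusted p = 0.0463). Cep295 was named for that result, so its place here was fixed in advance. For the other 5 the signs alone differed, and the interaction did not pass. The share of all genes with this pattern was not counted, so no excess is drawn from the 6. The change was 1.48 for Ccnd1, 0.46 for Pcsk1, 0.46 for Sst, -0.23 for Atf4 and -0.22 for Mki67. Without BayK8644 the differences of Sst were only -0.01 and -0.01.

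In 3 named genes the sign of the exendin-4 difference at 24 h opposed that at 6 h in both BayK8644 states. The change from 6 to 24 h was 1.20 for Adcy8, 0.87 for Cend1 and 0.19 for Pde3b, and the interaction with time did not pass for any of them. Adcy8 and Cend1 were named for their small p-values in that interaction. The share of all genes with this pattern was not counted, so no excess is drawn from the 3.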

How the results depend on the processing

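The count of 0 called genes over 6 and 24 h held under every other setting tried except 2: leaving out the DMSO array of 6 h gave 1 (Anp32a, so leaving out each array gave 0 to 1), and leaving out the 24 h pair without BayK8644 gave 36, a fit with fewer arrays whose cause was not tested. With the matched pairs as the block, the smallest limma adjusted p was 0.0581, the value of Tac1. The BayK8644 interaction, 1 gene in the main fit, gave 0 with the matched pairs as the block (adjusted p of the top gene 0.136), 0 with all 16 arrays (0.194), 0 after quantile normalization (0.056), 0 with the mean of probe sets (0.0632), 0 with no intensity trend (0.0541) and 5 with no filter (0.000313), and 0 to 6 when each array was left out. No paired analysis by replicate number was possible because the labels carry none; the matched pairs stood in for it. The 24 named genes kept their direction in 408 of 408 alternative values, and all 79 named genes in 1287 of 1343. The 24 were chosen for 4 differences of 1 sign, and the alternatives reuse the same arrays. Their constant direction was therefore favoured in advance, and no support is drawn from it. Genes with 4 of 4 differences above 0 outnumbered those below in the main fit, and the order turned after quantile normalization, with centred arrays, with the mean of probe sets and with no filter (792 and 958). The mean of probe sets also moved Ccnd2 to 0.12, Dusp10 to 0.46, Hspa5 to 0.02, Kcnj11 to 0.08, Matn3 to -0.17, Sesn1 to -0.16 and Skp2 to -0.05. In lists, added after seeing the data, mitosis genes higher in 4 of 4 pairs numbered 1 with arrays centred on the median and 1 with the mean of probe sets, in place of 2, stress genes lower in 4 of 4 numbered 2 with the mean of probe sets, in place of 0, and stress genes higher in 4 of 4 numbered 15, 13 and 12 under quantile normalization, centring and the mean of probe sets.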
